A study of Mus musculus with 4 samples.

Results

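The guanylate-binding proteins (GBPs) and immunity-related GTPases (IRGs) are described here through 10 mouse genes, Gbp2, Gbp3, Gbp5, Gbp7, Gbp9, Igtp, Irgm1, Irgm2, Iigp1 and Tgtp1. They were picked by gene symbol from the 24497 entries of the deposited expression table that are not spike-ins, and each of the 10 symbols matched 1 row. RNA-seq had been performed on NRAS/AE9a leukemic cells, a mouse acute myeloid leukemia (AML) model made by putting NRAS and AE9a, a truncated form of the AML1-ETO fusion, into hematopoietic stem cells of the bone marrow. The group labelled Tet2 KO came from Tet2-/- mice lacking exons 8 to 10 of Tet2, an enzyme that oxidises 5-methylcytosine, and had 2 libraries. The WT group came from wild-type mice and also had 2 libraries. Cells of both groups carried the same oncogenes and grew under the same conditions. The RPMI medium held the cytokines SCF (50 ng/ml), IL-6 (10 ng/ml) and IL-3 (10 ng/ml) and the selection drugs puromycin (2 µg/ml) and G418 (1 mg/ml), and no interferon is named among its additions. The labels give neither the number or age of the mice nor whether replicates were separate cultures, so each p-value rests on library-to-library spread that may be technical.

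GBPs and IRGs are interferon-inducible GTPases of cell-autonomous immunity. In mouse macrophages and fibroblasts they are among the genes most strongly induced by interferon gamma, and they assemble on the vacuoles of parasites and bacteria and on bacterial surfaces. GBPs are large, dynamin-like GTPases, several of which are anchored in membranes by a lipid tail and feed into inflammasome activation. IRGs fall into regulators (Irgm1, Irgm2 and Igtp, also called Irgm3), which sit on the cell's own membranes and hold the others inactive, and effectors such as Tgtp1 (Irgb6) and Iigp1 (Irga6), which break up the vacuole.

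The libraries differed in more than the family. Tet2 itself had 53.53 and 52.79 TPM in the KO-labelled libraries and 35.05 and 39.95 TPM in WT, where TPM is a level relative to all transcripts of the library and corrected for transcript length. A value over the whole gene does not check a deletion of a few exons, so directions below follow the labels. The 11 markers of myeloid leukemia and progenitor cells were all above 1 TPM and summed to between 3558 and 3717 TPM across the 4 libraries. Of these, 5 were higher, among them Cd34 (0.46), a progenitor marker, and Mpo (0.44), a granule enzyme of early myeloid cells, and 5 were lower, among them the myeloid integrin Itgam (-0.39), as log2 changes in the limma fit described below (adjusted p = 0.0012, 0.0015 and 0.0023). All 12 markers of maturing neutrophils were lower in the KO-labelled libraries, with sums of 23860 and 24160 TPM there and 47250 and 46610 TPM in WT. Of all genes tested in that fit 18.9% were higher and 11.6% lower. The ribosomal RNA entry Rn45s had 14263 and 8813 TPM in the KO-labelled libraries and 5704 and 4350 TPM in WT. The part of these differences in the results below was not tested. In bulk RNA, fewer cells of a type and less RNA per cell cannot be told apart.

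Of the 10 genes, 8 were higher in the KO-labelled libraries, 1 (Tgtp1) was not called and 1 (Iigp1) was too low to test. The changes of the 8 ran from 1.31-fold for Irgm1 to 2.52-fold for Gbp5 as ratios of mean TPM. For 9 of them at least 1 TPM in at least 2 libraries was reached, the condition for testing. Genes were called at an adjusted p under 0.05 in a limma fit of log2(TPM + 1) over all 11837 genes that met it, with Benjamini-Hochberg adjustment. By the same rule 30.5% of all tested genes were called, 18.9% higher and 11.6% lower. Higher genes made up 62.0% of all calls with the deposited scaling, 48.5% with trimmed-mean scaling and 29.9% with spike-in scaling, the last of which lowered the median change of all genes by 0.11. The 9 tested genes had changes above 0 under each of these scalings. Their median was 0.54, against 0.04 for all tested genes, a gap of 0.50, and the gap was 0.51 with spike-in scaling. In all 10 genes both KO-labelled libraries lay above both WT libraries, as they did for 42.2% of tested genes, while the reverse held for 26.5%. Their summed level was 128.1 and 123.3 TPM in the KO-labelled libraries and 80.95 and 85.20 TPM in WT.

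**Figure D1:**
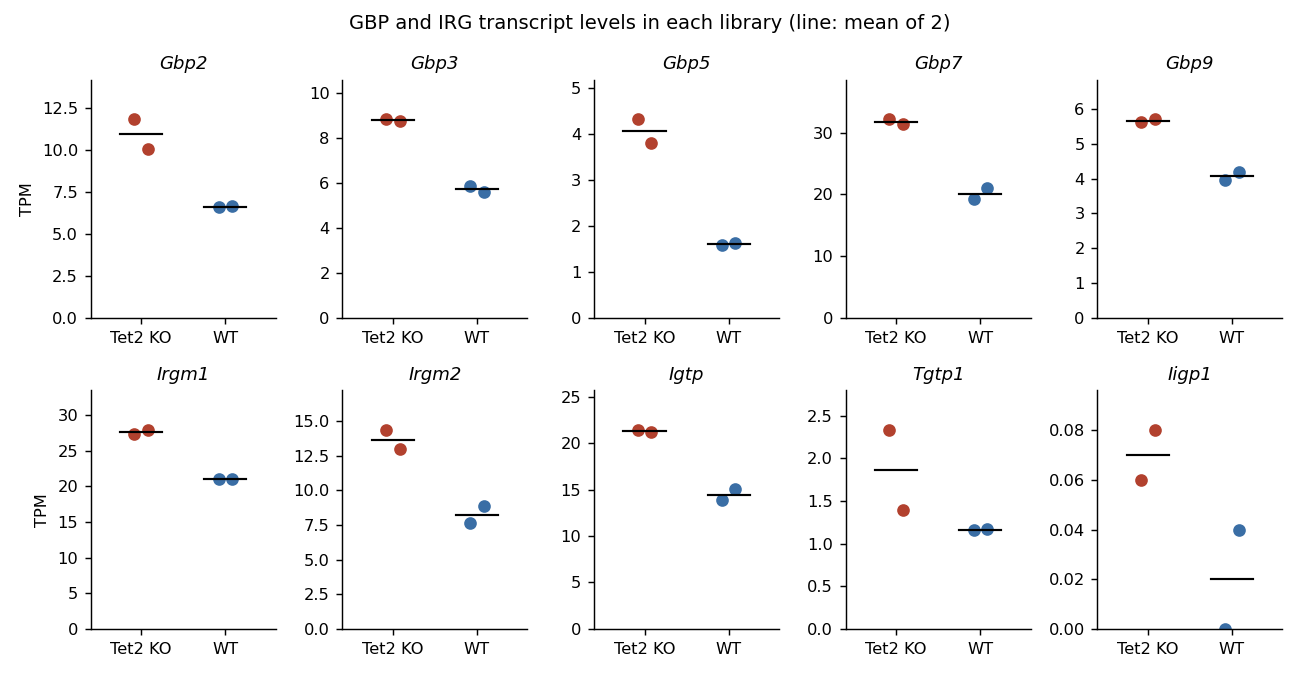
Level in TPM (vertical axis, from 0, scaled to each gene) of the 10 genes in each library, with the 2 KO-labelled libraries on the left and the 2 WT libraries on the right of each panel. Points are libraries and lines are means of 2; in every panel both left points lie above both right points, and the Iigp1 panel ends below 0.10 TPM.

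Among the GBPs, Gbp5, which promotes inflammasome assembly in mouse macrophages, changed the most. It had 4.31 and 3.80 TPM in the KO-labelled libraries, against 1.59 and 1.63 TPM in WT. The means were 4.06 ± 0.36 and 1.61 ± 0.028 TPM (SD, n = 2 each), a log2 change of 0.95 (SE 0.11, limma adjusted p = 0.0031). Gbp5 thus stood near the bottom of the family by level and at the 99.1st percentile of change among all tested genes. The size of that change depends on the pseudocount, since the gene is low: it was 1.28 with a pseudocount of 0.1 and 0.45 with a pseudocount of 5, and called with each.

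Gbp2, a lipid-anchored GBP that coats parasite vacuoles in mouse cells, had 11.79 and 10.05 TPM in the KO-labelled libraries and 6.57 and 6.67 TPM in WT. Its log2 change was 0.64 (SE 0.088, limma adjusted p = 0.0057), and the groups did not overlap. Gbp7 had 32.11 and 31.40 TPM in the KO-labelled libraries and 19.20 and 20.99 TPM in WT. It was the most abundant of the 10 in the KO-labelled libraries and changed by 0.64 (SE 0.057, limma adjusted p = 0.0016), 1.58-fold in mean TPM. Gbp3 had 8.82 and 8.77 TPM in the KO-labelled libraries and 5.85 and 5.59 TPM in WT, a log2 change of 0.54 (SE 0.068, limma adjusted p = 0.0042).

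These 4 GBP genes lie in 1 cluster on chromosome 3, with Gbp2b between Gbp3 and Gbp2, between 142493978 and 142638008 in GRCm38 (GENCODE release M21), all on the plus strand. Gbp9, which runs from 105077630 to 105139539 on the minus strand of chromosome 5, belongs to the second GBP cluster. It had 5.62 and 5.69 TPM in the KO-labelled libraries and 3.95 and 4.20 TPM in WT. Its log2 change of 0.39 (SE 0.080, limma adjusted p = 0.018) was the least secure call of the 8. The call was lost without KO-labelled replicate 1 (0.40, adjusted p = 0.092), KO-labelled replicate 2 (0.38, adjusted p = 0.098) or WT replicate 1 (0.36, adjusted p = 0.068). It was also lost with spike-in scaling (0.30, adjusted p = 0.078) and with no filter on low values (adjusted p = 0.052). Over the 18 alternatives the adjusted p of Gbp9 ranged from 0.012 to 0.098. Gbp9 also overlaps Gbp8 and Gbp4 on the same strand in that annotation, so reads can have been divided between them.

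The regulatory IRGs were the most abundant IRGs of the set. Irgm1, which in mouse is needed to keep effector IRGs in check, had 27.28 and 27.88 TPM in the KO-labelled libraries and 21.09 and 21.04 TPM in WT. Its libraries agreed closely within each group, and its log2 change of 0.37 (SE 0.044, limma adjusted p = 0.0036) was the smallest of the 8. With spike-in scaling it was 0.26 and not called (adjusted p = 0.057, the highest over the 18 alternatives, of which the lowest was 0.0013). Igtp had 21.40 and 21.24 TPM in the KO-labelled libraries and 13.88 and 15.02 TPM in WT, a log2 change of 0.53 (SE 0.057, limma adjusted p = 0.0028). Irgm2 had 14.34 and 12.97 TPM in the KO-labelled libraries and 7.66 and 8.85 TPM in WT, a log2 change of 0.66 (SE 0.089, limma adjusted p = 0.0053). Irgm1 lies on chromosome 11 from 48861968 to 48871683. Igtp (58199556 to 58207591) lies farther along that chromosome and overlaps Irgm2 (58199618 to 58222782) on the same strand over most of its length, so shared reads are possible there too.

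Both effector IRGs of the set were scarce. Tgtp1 had 2.33 and 1.39 TPM in the KO-labelled libraries and 1.16 and 1.17 TPM in WT. KO-labelled replicate 1 stood well above the other 3 libraries, and the log2 change of 0.38 was not called (95% interval -0.08 to 0.85, limma adjusted p = 0.18). Its near-identical neighbour Tgtp2 was higher and steadier, with 14.04 and 14.32 TPM in the KO-labelled libraries and 6.94 and 7.57 TPM in WT (0.88, SE 0.067, limma adjusted p = 0.00095). Reads of the 2 copies cannot be separated with certainty. Summed, they had 16.37 and 15.71 TPM in the KO-labelled libraries and 8.10 and 8.74 TPM in WT, a log2 change of 0.86 (adjusted p = 0.00093). Over the 18 alternatives for Tgtp1, of which only that sum was called, the adjusted p ranged from 0.00093 to 0.59. Tgtp1 (48985327 to 48994172 on chromosome 11) also overlaps the IRG gene Gm12185 (48904656 to 48992226) on the same strand, so reads can have been divided there too. Iigp1, on chromosome 18, was listed at 0.06 and 0.08 TPM in the KO-labelled libraries and at 0 and 0.04 TPM in WT. Its relatives on that chromosome were also under 1 TPM in every library: Gm4951 had 0.85 and 0.88 TPM in the KO-labelled libraries and 0.12 and 0.15 TPM in WT, and F830016B08Rik had 0.09 and 0.15 TPM in the KO-labelled libraries and 0.02 TPM in each WT library, while Gm4841 was at or below 0.03 TPM throughout.

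The order of levels was nearly the same in both groups. In the KO-labelled libraries it ran Gbp7, Irgm1, Igtp, Irgm2, Gbp2, Gbp3, Gbp9, Gbp5, Tgtp1 and Iigp1, with means of 31.8, 27.6, 21.3, 13.7, 10.9, 8.80, 5.66, 4.06, 1.86 and 0.070 TPM. Each gap between neighbours there exceeded the larger SD of the pair. In WT the first places were exchanged, with Irgm1 at 21.1 ± 0.035 and Gbp7 at 20.1 ± 1.27 TPM (SD, n = 2 each), a gap of 0.96 TPM that was smaller than the spread of Gbp7. All other WT neighbours differed by more than their spread, and with 2 libraries a group no order was tested.

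The remaining genes of the family mostly followed the same direction. Of 21 other GBP, IRG and very large inducible GTPase genes in the table, 13 were tested. Of these 9 were higher, 1 was lower and 3 were not called, where 18.9% of all tested genes were higher and 11.6% lower. The 13 had a median change of 0.49, against 0.04 for all tested genes. Without KO-labelled replicate 1, 6 were higher and 0 lower. Gbp4 had 2.80 and 2.57 TPM in the KO-labelled libraries and 1.14 and 1.18 TPM in WT (0.77, SE 0.11, limma adjusted p = 0.0069). Gbp8 had 5.52 and 4.78 TPM in the KO-labelled libraries and 3.21 and 3.07 TPM in WT (0.57, limma adjusted p = 0.012). Without KO-labelled replicate 1 the calls of Gbp4 and Gbp8 were lost (adjusted p = 0.055 and 0.073). Gbp6 and Gbp11 were under 1 TPM in every library, while Gbp2b and Gbp10 were listed at 0 in all 4.

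Ifi47 (Irgd), an effector IRG, was the most abundant IRG of all, with 66.64 and 67.15 TPM in the KO-labelled libraries and 50.16 and 50.53 TPM in WT (0.40, SE 0.035, limma adjusted p = 0.0016). Gm12250 (Irgb10), which in mouse macrophages helps to break bacterial membranes, had 3.58 and 4.11 TPM in the KO-labelled libraries and 1.93 and 2.17 TPM in WT. Its change of 0.67 (limma adjusted p = 0.010) was not called without KO-labelled replicate 2 (0.59, adjusted p = 0.068). The very large GTPases Gvin1 and Gm4070 changed by 0.59 and 0.62 (limma adjusted p = 0.0021 and 0.0012), and Gm4070 reached 95.61 and 91.68 TPM in the KO-labelled libraries against 58.22 and 62.93 TPM in WT. Gm17757 (0.49, limma adjusted p = 0.0065) was higher too, except without KO-labelled replicate 1 (adjusted p = 0.055). The tandem pair 9930111J21Rik1 and 9930111J21Rik2 differed in the call. The first was higher (0.38, limma adjusted p = 0.0042), and the second had a change of 0.03 (95% interval -0.39 to 0.44). KO-labelled libraries of the second disagreed, with 6.84 and 9.98 TPM, against 8.62 and 7.63 TPM in WT. The annotated Gm12185 also spans the first copy on the same strand. Whether reads were divided among these genes was not tested. Gm5431 had 3.74 and 2.56 TPM in the KO-labelled libraries and 1.43 and 2.56 TPM in WT, a change of 0.48 that was not called (limma adjusted p = 0.17).

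The divergent members Irgc1 and Irgq had smaller or opposite values. Irgc1, which is known from mouse testis, had 3.52 and 4 TPM in the KO-labelled libraries and 6.62 and 5.45 TPM in WT (-0.56, SE 0.11, limma adjusted p = 0.019). This call was lost without KO-labelled replicate 1 (adjusted p = 0.10), KO-labelled replicate 2 (adjusted p = 0.063) or WT replicate 1 (adjusted p = 0.067), and with no filter on low values (adjusted p = 0.06). Irgq, a divergent family member, had 9.47 and 9 TPM in the KO-labelled libraries and 7.97 and 8.62 TPM in WT, a change of 0.14 (95% interval -0.04 to 0.32, limma adjusted p = 0.19).

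**Figure D2:**
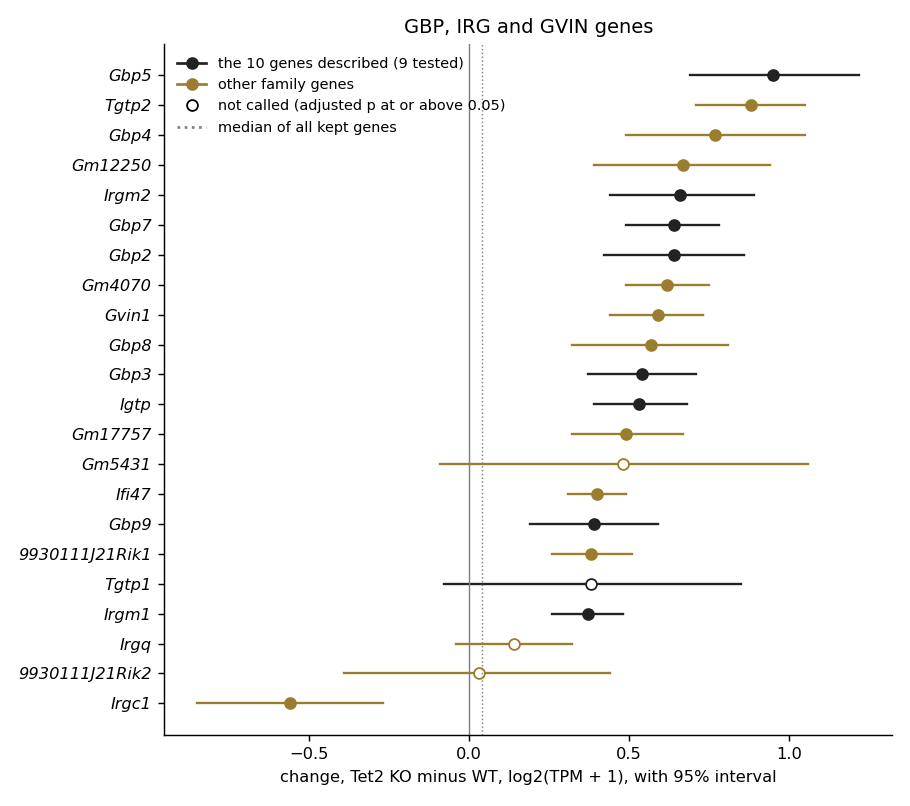
Change (horizontal axis, Tet2 KO-labelled minus WT on the log2(TPM + 1) scale) of the 22 tested GBP, IRG and very large GTPase genes, with 95% intervals from the limma fit. Dark points are the genes described, light brown points the other family genes, and open points were not called; 21 of 22 lie right of 0, from 0.03 for 9930111J21Rik2 to 0.95 for Gbp5, and Irgc1 lies at -0.56.

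Each genomic cluster that was summed was higher as a whole, while the IRG genes on chromosome 18 were not summed. Summed over its 5 genes, the chromosome 3 GBP cluster had 57.03 and 54.02 TPM in the KO-labelled libraries and 33.21 and 34.88 TPM in WT, a ratio of 1.63. The chromosome 5 GBP cluster (6 genes) had 14.81 and 14.02 TPM in the KO-labelled libraries and 8.58 and 8.85 TPM in WT, a ratio of 1.65. On chromosome 11, the cluster from Irgm1 to Ifi47 (8 genes) had a ratio of 1.35 and the cluster from Gm12250 to Irgm2 (3 genes) a ratio of 1.57. The chromosome 3 cluster starts 8.95 Mb from Tet2, the gene that was deleted in the mice, while the other clusters lie on other chromosomes. Of 19 other tested genes between Tet2 and Gbp5, 6 were higher and 0 lower, with a median of 0.11 and by the same limma calls. Of 4 other tested genes within 1 Mb of the chromosome 3 cluster, 2 were higher and 0 lower, and of 11 near the chromosome 5 cluster, 1 was higher and 0 lower. Within 1 Mb of the Irgm1 to Ifi47 cluster 4 of 15 were higher and 0 lower, and within 1 Mb of the Gm12250 to Irgm2 cluster 1 of 24 was higher and 0 lower. The share over all tested genes was 18.9% higher and 11.6% lower.

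The promoters of these genes can be read beside their values. Interferon-response elements of 2 kinds were searched for in RefSeq promoter windows, which run from 250 bases before to 50 bases after each transcript start (GRCm38.p6). The gamma-activated site (GAS, TTCNNNGAA, the same on both strands) is an element of interferon gamma-induced promoters, and the core of the interferon-stimulated response element (ISRE, GAAA, any 2 bases, GAAA, on either strand) is bound by IRF factors. Windows were found for 8 of the 10 genes, 9 windows in all, and for 9 of the other family genes. The ISRE core was found in 8 of the 9 windows, 1 for each of the 8 genes, and in 3.44% of all 32851 windows. The GAS was found in 5 of the 9 windows and in 8.30% of all windows, and both elements together in 5 and in 0.454%. In the 9 windows of other family genes the ISRE core was found in 5, the GAS in 3 and both in 3. A match is a description of the letters and not evidence of binding.

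Among windows of the genes described, the 5 with both elements belong to Gbp5, Gbp7, Igtp, Irgm2 and Tgtp1, whereas Gbp2, Gbp3 and Irgm1 have the ISRE core alone. Log2 changes of the first set ran from 0.38 (Tgtp1, not called) to 0.95 (Gbp5), and those of the second were 0.64, 0.54 and 0.37, so the ranges overlap. In the windows of Igtp, Irgm2 and Tgtp1 both elements stand in a fixed arrangement, the GAS first, then 2 bases, then the ISRE core. This arrangement, noticed after the matches were seen, occurs on either strand in 5 of the 32851 windows, all of them IRG promoters on chromosome 11, although the IRG gene Gm12250 has both elements without it. It is shown for those 5 promoters with 10 bases on each side, 5′ to 3′ on the gene strand, with both elements in capitals, because the flanking bases before it are also nearly the same in each.
Igtp (chr11:58199501-58199541, plus strand): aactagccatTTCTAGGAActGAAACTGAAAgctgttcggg
Irgm2 (chr11:58214892-58214932, plus strand): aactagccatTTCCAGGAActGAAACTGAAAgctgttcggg
Tgtp1 (chr11:48992304-48992344, minus strand): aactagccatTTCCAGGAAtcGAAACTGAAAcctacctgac
Tgtp2 (chr11:49064263-49064303, minus strand): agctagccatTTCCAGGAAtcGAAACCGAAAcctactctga
Gm12185 (chr11:48927238-48927278, minus strand): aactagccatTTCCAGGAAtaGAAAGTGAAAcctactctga

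The GAS of this arrangement starts 45 bases before the transcript start in Igtp, 75 in Irgm2, 88 in Tgtp1, 81 in Tgtp2 and 86 in Gm12185. Bases shortly after the RefSeq start were found in a GENCODE transcript of Igtp, Tgtp1, Tgtp2 and Gm12185 but not of Irgm2 or Gm12250. The distance in Irgm2 thus rests on the RefSeq start alone. Levels of the 5 genes with the arrangement differed. Gm12185 had 0.43 and 0.32 TPM in the KO-labelled libraries and 0.44 and 0.29 TPM in WT, while Igtp stood at 13.88 TPM or more in every library. Ifi47, the most abundant IRG, has neither element in its window. Irgm1, whose change was the smallest of the 8, has 2 overlapping ISRE core matches 30 and 24 bases before its start and no GAS in its window (chr11:48871371-48871670, minus strand), shown whole with the matches in capitals.
Irgm1: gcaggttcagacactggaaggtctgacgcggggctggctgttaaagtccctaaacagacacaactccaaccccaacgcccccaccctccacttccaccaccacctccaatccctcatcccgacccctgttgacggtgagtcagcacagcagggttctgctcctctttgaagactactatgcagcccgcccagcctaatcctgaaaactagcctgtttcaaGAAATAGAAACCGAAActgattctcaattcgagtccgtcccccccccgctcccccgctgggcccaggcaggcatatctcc

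Gbp5, whose change was the largest, has GAS matches 245 and 52 bases before its start and an ISRE core between them, on the other strand, 165 bases before it (chr3:142496684-142496983, plus strand). Its window is shown in the same way.
Gbp5: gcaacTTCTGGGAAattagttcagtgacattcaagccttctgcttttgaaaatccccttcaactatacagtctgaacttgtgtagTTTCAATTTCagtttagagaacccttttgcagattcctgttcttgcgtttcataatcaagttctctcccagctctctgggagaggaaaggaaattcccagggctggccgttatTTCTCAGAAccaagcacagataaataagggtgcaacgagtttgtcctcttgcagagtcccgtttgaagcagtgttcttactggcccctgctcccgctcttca

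**Figure D3:**
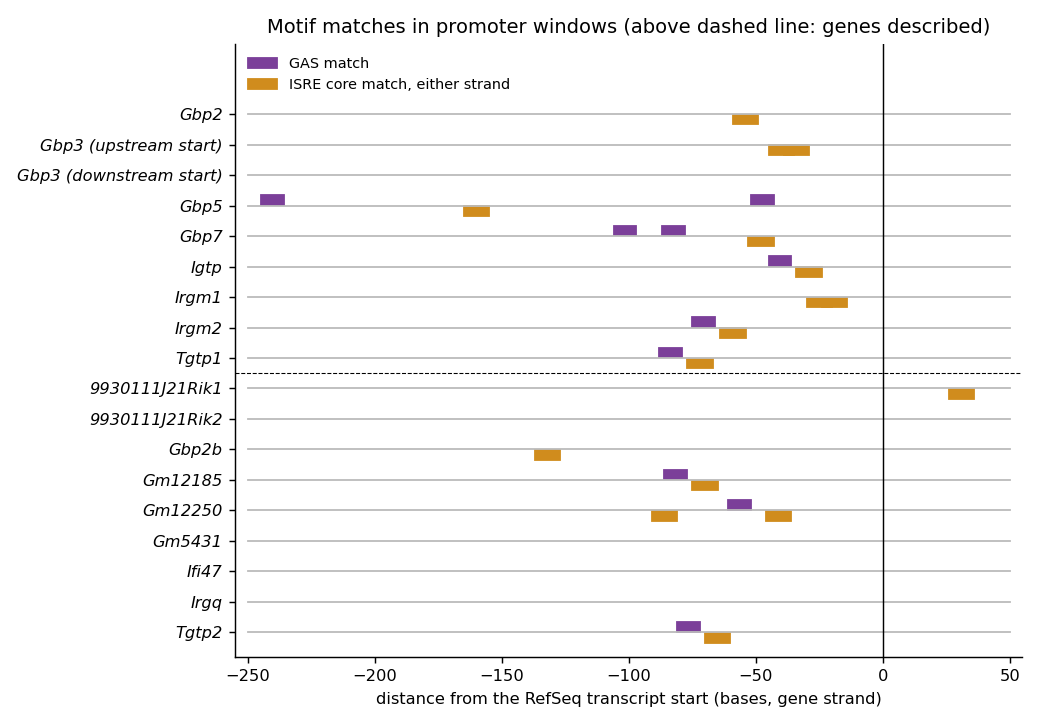
Positions of GAS matches (purple) and ISRE core matches on either strand (orange) relative to the RefSeq transcript start (horizontal axis, bases, gene strand) in the 18 promoter windows of the family. Windows above the dashed line belong to the 8 genes described that have one, with 2 windows for Gbp3; Igtp, Irgm2 and Tgtp1 share the adjacent pair with Gm12185 and Tgtp2 below the line.

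Ifng, which encodes interferon gamma, was listed at 0 in all 4 libraries, as were Ifna1, Ifna2, Ifna4, Ifna5, Ifne, Ifnk, Ifnl2 and Ifnl3. Ifnb1 was listed at 0.11 TPM in KO-labelled replicate 2 and at 0 in the other 3. Since read depth is unknown, no limit can be put on these zeros. Il12a, a subunit of the cytokine that elicits interferon gamma from lymphocytes, had 8.36 and 9.13 TPM in the KO-labelled libraries and 3.69 and 5.95 TPM in WT (0.77, limma adjusted p = 0.031). Its call was lost in 5 of 18 alternatives. These include no filter on low values, no variance trend, and leaving out KO-labelled replicate 1 or 2. Il12b, the other subunit, was at or below 0.07 TPM throughout. Il18 and Il27, cytokines that also promote interferon gamma production, had changes of 0.18 and -0.35 and were not called (limma adjusted p = 0.20 and 0.092), with Il27 at 12.65 and 10.76 TPM in the KO-labelled libraries and 13.44 and 16.97 TPM in WT. Il27 was called lower with spike-in scaling (-0.45, adjusted p = 0.017) and without WT replicate 1 (-0.50, adjusted p = 0.036).

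Of T and NK cell markers, which would mark an outside source of interferon gamma, 13 of 14 were under 1 TPM in every library. The T cell receptor component Cd3e and the NK receptor Ncr1 were listed at 0 in all 4. The exception was Gzmb, with 20.91 and 21.35 TPM in the KO-labelled libraries and 8.17 and 8.52 TPM in WT, which makes up most of the list's sum of 21.81 and 22.22 TPM in the KO-labelled libraries and 9.17 and 9.11 TPM in WT. Macrophage markers, of cells that express the family strongly once stimulated, summed to 716.7 and 705.2 TPM in the KO-labelled libraries and 889.0 and 908.0 TPM in WT. Of 10 tested macrophage markers 3 were higher and 3 lower, and without either KO-labelled library 0 were higher and 3 lower. Over all tested genes 18.9% were higher and 11.6% lower. Of 10 dendritic cell markers 6 were under 1 TPM throughout, and the list summed to 67.21 and 73.84 TPM in the KO-labelled libraries and 154.6 and 161.9 TPM in WT. B cell markers were under 1 TPM throughout for 6 of 7, and summed to 4.81 and 5.10 TPM in the KO-labelled libraries and 3.69 and 3.81 TPM in WT. Stromal and endothelial markers were under 1 TPM throughout for 7 of 10, and summed to 346.8 and 346.0 TPM in the KO-labelled libraries and 431.1 and 442.7 TPM in WT. Pecam1, which myeloid cells also express, made up most of these sums, with 333.11 and 332.61 TPM in the KO-labelled libraries and 417.08 and 428.59 TPM in WT, while Pdgfrb was higher (0.48, limma adjusted p = 0.0054). The part of these cells in the family's change was not tested.

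The receptors and kinases that carry interferon signals changed little. Of 9 tested genes for interferon receptors, Janus kinases and STATs, 0 were higher, 1 was lower and 8 were not called. Over all tested genes 18.9% were higher and 11.6% lower. The median of the 9 was 0.10 (0.05 with trimmed-mean and -0.02 with spike-in scaling). With quantile or trimmed-mean scaling 2 of the 9 were lower. When TPM were rescaled without spike-ins and Rn45s, or with robust variances in the fit, 1 was higher. The one gene lower as reported was Ifngr1, the ligand-binding chain of the interferon gamma receptor, with 119.95 and 119.81 TPM in the KO-labelled libraries and 155.74 and 168.70 TPM in WT (-0.43, SE 0.046, limma adjusted p = 0.0027).

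Of all tested genes 18.9% were higher and 11.6% lower. Of 9 tested transcription factors and transactivators of the response, 4 were higher, 1 was lower and 4 were not called. Without KO-labelled replicate 2, 2 were higher. Irf7, which drives type I interferon genes, had 22.90 and 23.24 TPM in the KO-labelled libraries and 14.69 and 13.95 TPM in WT (0.65, SE 0.052, limma adjusted p = 0.0011). Irf9, the DNA-binding subunit of the type I interferon complex, had 27.05 and 26.86 TPM in the KO-labelled libraries and 20.07 and 19.20 TPM in WT (0.44, limma adjusted p = 0.0028). Nlrc5, the transactivator of MHC class I genes, and Irf8 changed by 0.55 and 0.35 (limma adjusted p = 0.0060 and 0.011), and without KO-labelled replicate 2 both calls were lost (adjusted p = 0.050 and 0.063). Irf8 was also not called with spike-in scaling (0.24, adjusted p = 0.10). Irf1, on which much of GBP induction by interferon gamma depends in mouse cells, had 19.00 and 21.55 TPM in the KO-labelled libraries and 18.87 and 17.73 TPM in WT. Its change was 0.14 (95% interval -0.05 to 0.32, limma adjusted p = 0.21). Ciita, the interferon gamma-inducible transactivator of MHC class II genes, was lower, with 0.84 and 0.90 TPM in the KO-labelled libraries and 2.13 and 2.15 TPM in WT (-0.75, limma adjusted p = 0.0091, or 0.053 without KO-labelled replicate 1). It reached 1 TPM in WT alone, so its testing rested on the group where it was high, and 0 of the other 8 factors were lower.

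Inhibitors of interferon signalling were called about as often as all tested genes, of which 18.9% were higher and 11.6% lower. Among 11 inhibitors 2 were higher, 1 was lower and 8 were not called. With spike-in scaling 1 was higher, since Socs3 (0.33, limma adjusted p = 0.0033) lost its call (adjusted p = 0.081). Usp18, an interferon-induced brake on the type I receptor, had 16.90 and 16.56 TPM in the KO-labelled libraries and 9.46 and 7.91 TPM in WT (0.88, SE 0.089, limma adjusted p = 0.0023). Ptpn1, a phosphatase of Janus kinases, was lower at 50.53 and 52.71 TPM in the KO-labelled libraries and 73.08 and 73.55 TPM in WT (-0.50, SE 0.039, limma adjusted p = 0.0011). Socs1, itself an interferon gamma target, had 42.93 and 43.72 TPM in the KO-labelled libraries and 36.53 and 40.24 TPM in WT, a change of 0.17 (95% interval 0.03 to 0.31, limma adjusted p = 0.070).

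Over all tested genes 18.9% were higher and 11.6% lower, with a median change of 0.04. Of 20 tested genes induced chiefly by type I interferon, 16 were higher, 0 lower and 4 not called, with a median change of 0.87. Among the 16, Ifit1, Ifit3, Ifit3b and Oasl1 reached 1 TPM in the KO-labelled libraries alone, so their testing rested on the group where they were high. Of the 16 tested genes besides these 4, 12 were higher, with a median of 0.72, a count made after the values were seen. Without KO-labelled replicate 1 or 2, 16 such genes were tested and 9 and 8 were higher. Oasl2 had 11.19 and 10.51 TPM in the KO-labelled libraries and 2.78 and 3 TPM in WT (1.61, SE 0.079, limma adjusted p = 0.00028). Of 14 tested interferon gamma targets outside the GTPases, 6 were higher, 2 lower and 6 not called, with a median of 0.11. Only 3 of those 14 were higher with trimmed-mean scaling and 2 with spike-in scaling, and 3 without KO-labelled replicate 1 or 2. Over all tested genes the number higher was 2237 as reported, 1721 with trimmed-mean scaling and 634 with spike-in scaling. The serpin Serpina3g (0.60, limma adjusted p = 0.00029) and the peptide transporter subunit Tap1 (0.46, limma adjusted p = 0.0014) were higher. The checkpoint ligand Cd274 had a change of -0.28 (limma adjusted p = 0.021). This call was lost in 6 of 18 alternatives. These include no filter on low values and leaving out KO-labelled replicate 1, KO-labelled replicate 2 or WT replicate 2. The chemokine Cxcl10 had a change of 0.06 (95% interval -0.37 to 0.48). Cxcl9, Ido1 and Ubd, which interferon gamma induces strongly in many cells, were at or below 0.02 TPM in every library. The order of the list medians depended on the pseudocount and was not tested. With a pseudocount of 0.1 the medians were 0.61 for the 9 GBP and IRG genes, 1.09 for all 20 type I targets and 0.11 for the other interferon gamma targets. With a pseudocount of 5 they were 0.44, 0.39 and 0.11. The 20 include the 4 genes whose testing rested on the KO-labelled libraries, and medians without these 4 were not computed at those pseudocounts.

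**Figure D4:**
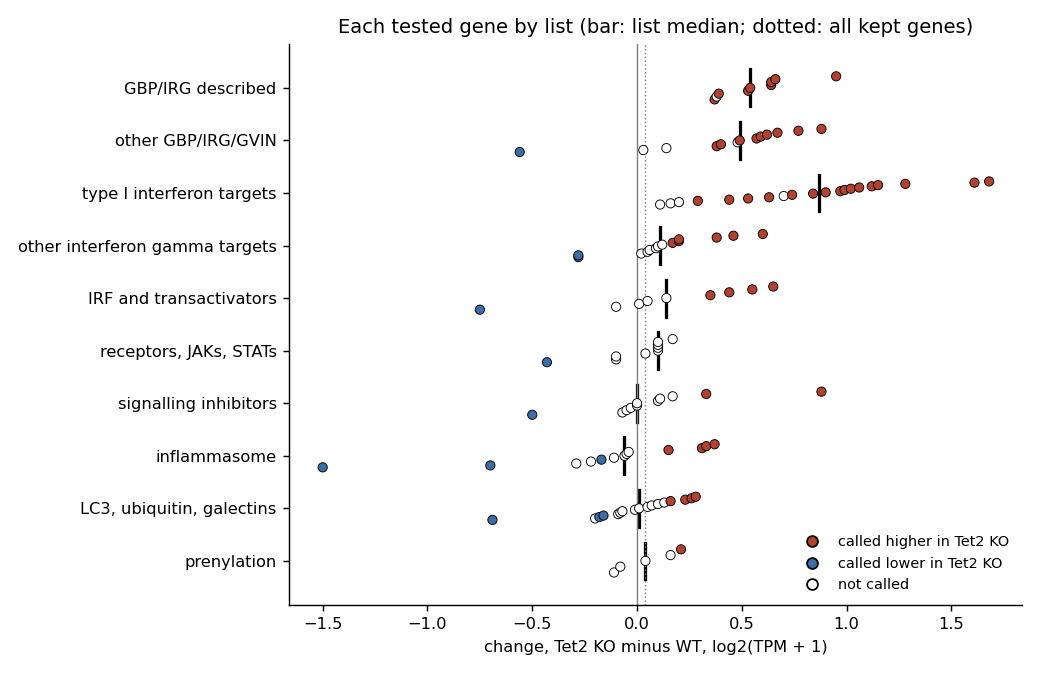
Change (horizontal axis, Tet2 KO-labelled minus WT on the log2(TPM + 1) scale) of each tested gene in 10 lists of the GBP and IRG pathway. Each point is a gene, red where called higher, blue where called lower and white where not called. Black bars are list medians, at 0.54 for the genes described, 0.87 for type I interferon targets and 0.10 for receptors, Janus kinases and STATs. Without the 4 type I targets that reached 1 TPM in the KO-labelled libraries alone, that list's median was 0.72 (not drawn). The dotted line is the median of all tested genes, 0.04.

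The machinery on which GBPs and IRGs act showed no common direction, where 18.9% of all tested genes were higher and 11.6% lower. Of 13 inflammasome genes 4 were higher, 3 lower and 6 not called, with a median of -0.06. With spike-in scaling 0 of them were higher and 3 lower, where 634 of all 11819 tested genes were higher and 1485 lower. Fewer of all tested genes were called with spike-in scaling or without either KO-labelled library. Mefv, which encodes pyrin, had 0.24 and 0.38 TPM in the KO-labelled libraries and 2.51 and 2.90 TPM in WT (-1.50, SE 0.14, limma adjusted p = 0.0019). It too reached 1 TPM in WT alone, and of the other 12 genes 4 were higher and 2 lower. Il1b had 6.10 and 7.01 TPM in the KO-labelled libraries and 11.51 and 11.02 TPM in WT (-0.70, limma adjusted p = 0.0035). The sensors Nlrp3 and Aim2 had changes of 0.37 and 0.33 (limma adjusted p = 0.0063 and 0.0087). With spike-in scaling they were 0.26 and 0.22 and not called (adjusted p = 0.063 and 0.060). Both calls were lost without KO-labelled replicate 1 (adjusted p = 0.054 and 0.069), and that of Aim2 also without KO-labelled replicate 2 (adjusted p = 0.064), so that without replicate 1 of that group 0 of the 13 were higher and without replicate 2 only 1 was, namely Nlrp3.

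The counts of the next lists stand beside shares of 18.9% higher and 11.6% lower over all tested genes. With spike-in scaling 634 of all 11819 tested genes were higher and 1485 lower. Without either KO-labelled library fewer of all tested genes were called as well. Of 17 genes for LC3 and GABARAP conjugation, ubiquitin and galectin sensing of damaged vacuoles, 4 were higher, 3 lower and 10 not called. With spike-in scaling 0 were higher and 3 lower, and without either KO-labelled library 1 was higher and 1 lower. The galectin Lgals3, a marker of ruptured vacuoles to which GBPs are drawn in mouse cells, had 476.06 and 488.34 TPM in the KO-labelled libraries and 776.46 and 775.41 TPM in WT (-0.69, SE 0.031, limma adjusted p = 0.00022). Of 5 enzymes that attach and trim lipid tails of proteins, 1 was called higher, Fntb at 0.21 (limma adjusted p = 0.033). With trimmed-mean or spike-in scaling 0 of the 5 were called. Over the 18 alternatives the change of Fntb ran from 0.1 to 0.22, and its call was lost in 11.

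The family's calls held under most processing settings. Leaving out each library in turn left 7 or 8 of the 10 genes called, while the number of all genes called was 1239 and 1288 without KO-labelled replicate 1 and 2. Requiring a change of at least 1.5-fold on the log2(TPM + 1) scale as well left 4 genes, Gbp2, Gbp5, Gbp7 and Irgm2, against 2.87% of all tested genes higher by that rule.

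**Figure D5:**
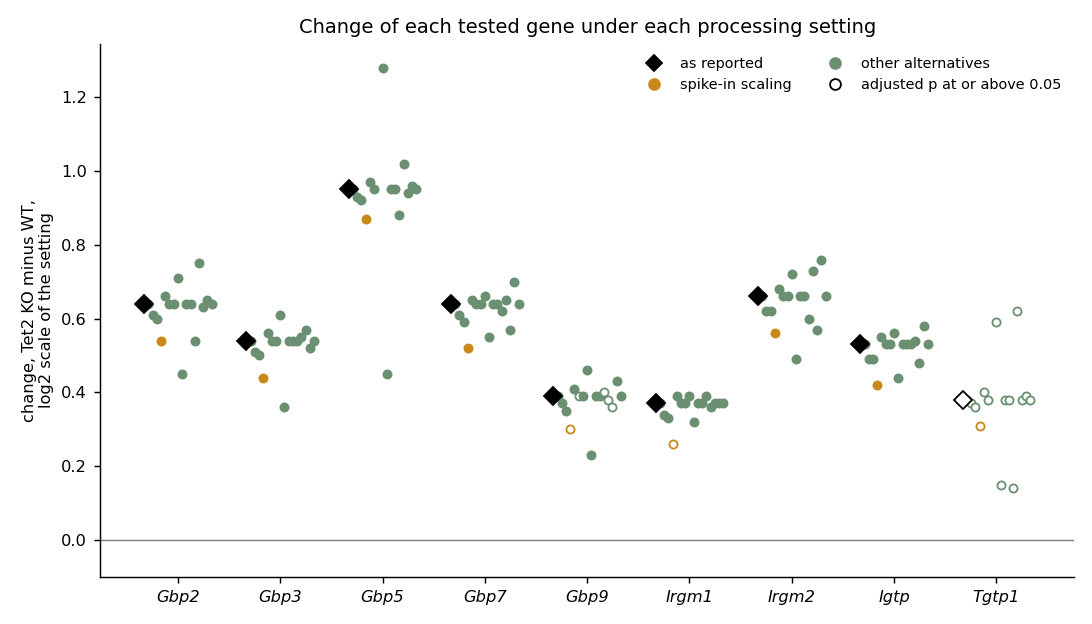
Change of each of the 9 tested genes (vertical axis, Tet2 KO-labelled minus WT on the log2 scale of the setting) under the reported setting (black diamonds), spike-in scaling (orange) and the other alternatives that refit the data (green). Open symbols were not called; all values lie above 0, Gbp9 and Irgm1 are open with spike-in scaling, and Tgtp1 is open throughout, its sum with Tgtp2 not being drawn.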

How the data were processed

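The authors deposited a single table of TPM for 4 libraries of NRAS/AE9a cells, made with STAR and RSEM on mm10 per the submitters' processing notes; tool versions, annotation and strand setting are not given in the sources used here. Per the labels, libraries came from total RNA with a stranded mRNA kit. Each column sums to 1000000 TPM, 92 spike-in entries included. The spike-in entries summed to 34136 and 33853 TPM in the KO-labelled libraries and 29764 and 33037 TPM in WT. Spike-in scaling thus divided the 2 WT libraries by unlike factors (0.912 and 1.01), and the KO-labelled libraries by 1.046 and 1.037. TPM keep no depth, so the precision from read depth is unknown, and a listed 0 may be an estimate that failed.

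Spike-ins were left out, and a gene was kept if 2 or more libraries reached 1 TPM (11837 genes). limma 3.58.1 in R 4.3.3, with a variance trend, was fitted to log2(TPM + 1), a scale that understates changes of low genes. Adjusted p are two-sided, Benjamini-Hochberg, over all kept genes. The fit had 2 residual degrees of freedom and a prior of 3.51. An exact permutation test of 2 against 2 libraries cannot go below p = 0.333.

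The members, lists and tests were chosen with earlier results of these data known. The rule for named genes takes the 10 members, other family genes, Tet2 and Ifng, and permits any kept interferon receptor, kinase or factor and up to 4 genes with the smallest p from each other list. Genes named outside it, for their role or their level and after their values were seen, are Ifit1, Ifit3, Ifit3b, Oasl1, Rn45s, Cd274, Cxcl10, Cxcl9, Ido1, Ubd, Cd3e, Ncr1 and the cytokines besides Ifng, Il12a, Il18 and Il27. Rnf213, Trac, Trbc2 and Ighm of the lists were not analysed here. The values of 1 gene of the receptor, kinase and STAT list are not reported here. Coordinates are from GENCODE M21 (GRCm38) and promoters from RefSeq (GRCm38.p6).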

Additional observations from a re-analysis of the deposited data

How the results depend on the processing

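Of 161 values of the 9 tested genes under the alternatives, 149 kept their call, 11 lost it, 1 gained it (Tgtp1 summed with Tgtp2) and 0 changed direction. The count of called genes was 8 of 10 as reported and 4 when a change of at least 1.5-fold was also required, a stricter rule by construction. Leaving out each library gave 7 to 8. Over all tested genes, 3606 were called as reported, 2119 with spike-in scaling (cause not tested), 1505 at an adjusted p under 0.01, 725 with at least 1.5-fold, and 1239 to 3255 with a library left out, which leaves fewer samples. With the replicate number as a block, 8 of the 10 and 3071 of all genes were called, and no call of the 10 changed. Deviations of same-numbered libraries from their group means correlated at -0.114 over 11837 genes, so the numbers were not taken to pair the libraries. A crossed pairing, chosen after seeing the data, called 8 of the 10 and 3463 of all genes. Unknown depth limits Iigp1 and the interferon genes, whose zeros have no floor.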
